A study of Drosophila melanogaster with 11 samples.

Results

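The 5 GluRII genes of Drosophila melanogaster, GluRIIA, GluRIIB, GluRIIC, GluRIID and GluRIIE, were taken by name from the 16727 genes of a count table made from antennal RNA, and all 5 passed the filter on low counts. Flies lacking the microRNA gene mir-284 (KO) were set against wild type (WT) at 3 d and at 25 d of age, with 3 libraries of KO at 3 d, 3 of WT at 3 d, 2 of KO at 25 d and 3 of WT at 25 d. Every fly in the study carried the w1118 allele of white, so that the KO genotype was w1118;;mir-284 KO and WT was w1118 alone. The nature of the KO allele, the sex of the flies and the number of animals in a library were not given in the sources used here. The tissue was the third antennal segment, the main smelling organ, and replicates were described as biological. Polyadenylated RNA was sequenced, and levels are in CPM, read counts relative to library size, after TMM scaling, a correction for differences in library composition.

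The GluRII proteins are subunits of the ionotropic glutamate receptors that sit in the muscle membrane opposite motor nerve endings in the fly. At the larval neuromuscular junction each receptor contains GluRIIC, GluRIID and GluRIIE together with either GluRIIA or GluRIIB, and the choice between GluRIIA and GluRIIB sets how long the channel stays open and how strong the response to transmitter is. The auxiliary protein Neto is needed to gather these receptors at the synapse. MicroRNAs such as miR-284 pair with target messenger RNAs and lower their stability or translation, and GluRIIA and GluRIIB have been reported as targets of miR-284 in the fly.

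Libraries held 24619699 to 55485825 counts, of which the 5 members together took 224 to 1407, so the depth behind a single subunit was small. Replicate 1 of KO at 25 d stood apart from every other library: its first principal component score was -163, against -13.3 to 47.6 in the others, and it held counts for 10447 genes, against 11801 to 13682. Replicate 3 of KO at 3 d and replicate 3 of WT at 3 d stood apart on the second component, at -69.4 and -80.1, against -10.7 to 37.2. Several results are also given without 1 or all of these 3 libraries, and leaving out all 3 was chosen after seeing the data. The rest are given with all 11 libraries only. A fit without replicate 1 of KO at 25 d has 1 KO library at that age, whose spread is taken from the other groups. For the fit without all 3, single genes called between KO and WT at 25 d are not named in the text. Neuron markers, among them the olfactory co-receptor gene Orco, were abundant in each group, with summed levels of the 8 of 3710 to 6530 CPM in KO and 3330 to 6620 CPM in WT at 3 d, and of 6400 to 7950 CPM in KO and 5580 to 6020 CPM in WT at 25 d. The lowest of these sums at 3 d, 3710 CPM in KO and 3330 CPM in WT, were in the libraries numbered 3, which stood apart. In such whole-tissue RNA, fewer cells of a type and less RNA per cell cannot be told apart.

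On the dm6 build, GluRIIA (FBgn0004620) lies on chromosome 2L from 5555072 to 5558994 on the forward strand with 12 exons, and GluRIIB (FBgn0020429) starts 347 bases after its end and runs from 5559342 to 5563502 with 13 exons. GluRIIC (FBgn0046113) is also on the forward strand of 2L, from 914086 to 917805, with 11 exons. GluRIID (FBgn0028422, 14 exons) and GluRIIE (FBgn0051201, 13 exons) are neighbours on the reverse strand of 3R, from 20648595 to 20652450 and from 20644154 to 20648716. These last genes share 122 bases of exon on the same strand, and GluRIIE shares a further 126 bases with Lrrk on the opposite strand. Because reads were counted without regard to strand, a read in the bases shared with Lrrk could belong to either gene. Whether such reads were counted for GluRIIE or left out was not checked, so its counts near that end are uncertain. In the Ensembl BDGP6.54 annotation of this build the 3′ UTR, the region in which microRNA sites usually lie, measures 297 bases in GluRIIA, 98 in GluRIIB, 69 in GluRIIC, 209 in GluRIID and 633 in GluRIIE.

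GluRIIA, the subunit of the receptor form with the stronger response, was the 1 member that edgeR called between KO and WT, and it was higher in every KO library than in any WT library. At 25 d it was at 19.7 and 24.8 CPM in the KO libraries, against 4.99, 4.58 and 3.05 CPM in the WT libraries. The lowest KO library was thus well above the highest WT library, and the means were 22.2 ± 3.6 CPM in KO and 4.21 ± 1.02 CPM in WT (SD, n = 2 and 3). The fitted difference was 5.27-fold, a log2 fold change of 2.4 (SE 0.32, 95% confidence interval 1.68 to 3.12), with an adjusted p of 0.00589 by edgeR's quasi-likelihood test. GluRIIA was therefore higher in KO at 25 d, and it was the 1 member of 5 called there, where 1.74% of all tested genes were called and 0.986% were called higher. Without replicate 1 of KO at 25 d the log2 fold change was 2.55, and without all 3 libraries that stood apart it was also 2.55. In both fits replicate 2, at 24.8 CPM, was the lone KO library of that age, so no call is given for them. The call was lost in 2 of the alternatives, voom with library quality weights (2.28, adjusted p = 0.053) and a fit of the 25 d libraries alone (2.4, adjusted p = 0.0638).

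**Figure D1:**
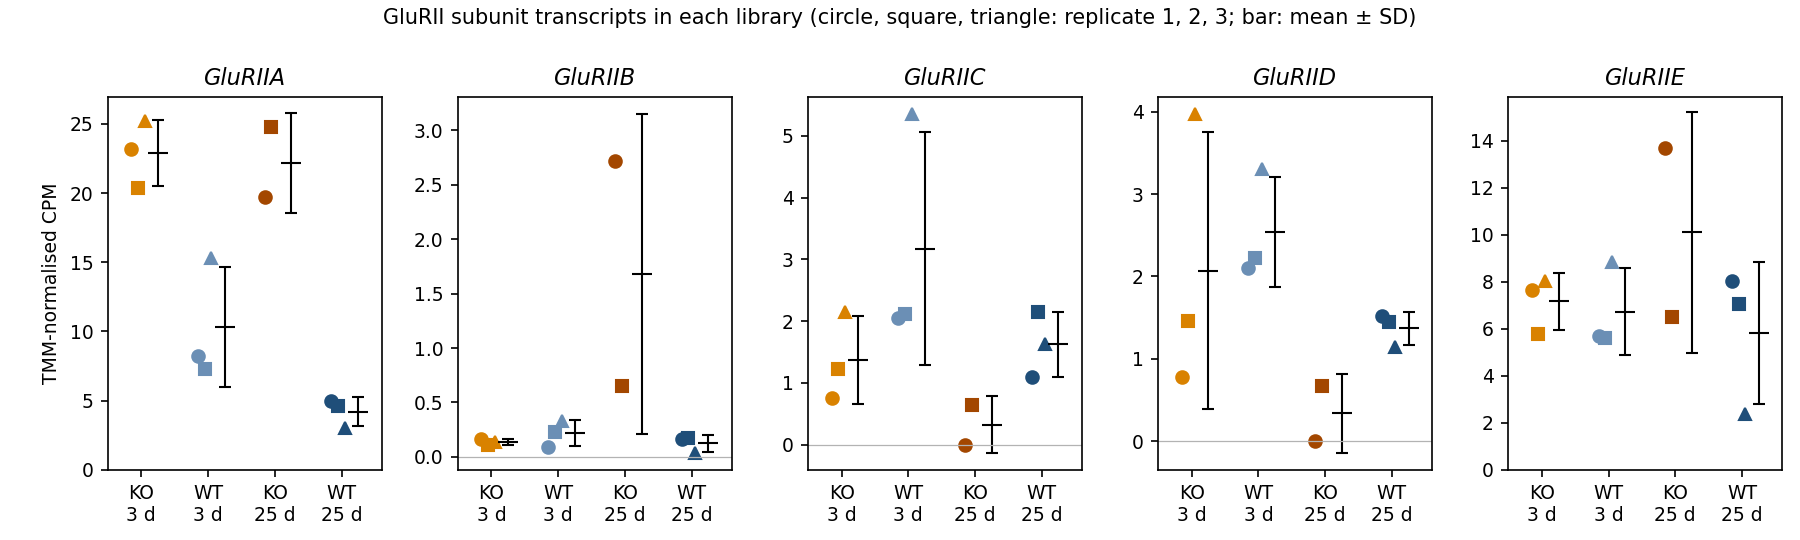
TMM-normalised CPM (linear axis, its own range for each gene) of the 5 GluRII genes in each library of KO and WT at 3 d and 25 d; the symbol shows the replicate number and the bar the mean ± SD of the group. The 5 KO libraries of GluRIIA lie at 19.7 to 25.2 CPM, above all WT libraries at 3.05 to 15.3 CPM, while GluRIIC and GluRIID are at 0 in replicate 1 of KO at 25 d.

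At 3 d GluRIIA was at 23.2, 20.4 and 25.2 CPM in KO, against 8.21, 7.32 and 15.3 CPM in WT. Every KO library was again above every WT library, but WT replicate 3, a library that stood apart, was the highest of the WT libraries by a wide margin. The means were 22.9 ± 2.4 CPM in KO and 10.3 ± 4.35 CPM in WT (SD, n = 3 each). The log2 fold change was 1.16 (SE 0.29, interval 0.51 to 1.81), with an unadjusted p of 0.00243 and an adjusted p of 0.0986 by edgeR, which missed the threshold of 0.05. This result turned on single libraries: without WT replicate 3 the log2 fold change was 1.56 (adjusted p = 0.0173). Leaving out either KO library of 25 d kept it at 1.16, since all 4 groups share an estimate of the spread but not their means. The adjusted p then fell to just under the threshold without replicate 1 and to just over it without replicate 2. Without the 3 libraries that stood apart it was 1.48 (adjusted p = 0.0015). DESeq2 (1.12, adjusted p = 0.0171), voom (1.24, adjusted p = 0.0378) and voom with library quality weights (1.49, adjusted p = 1.69e-05) also passed it.

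Over both ages the lowest of the 5 KO libraries, at 19.7 CPM, was above the highest of the 6 WT libraries, at 15.3 CPM, as for 3.48% of all tested genes in this direction. Averaged over the ages, the KO effect on GluRIIA was a log2 fold change of 1.78 (SE 0.22, interval 1.29 to 2.26; adjusted p = 0.00119 by edgeR), and GluRIIA was the 1 member called, against 5.32% of all tested genes, or 2.91% in this direction. It stayed past the threshold under all 20 alternatives run for this contrast. The KO effect at 25 d exceeded that at 3 d by 1.24 on the log2 scale (SE 0.43, interval 0.28 to 2.20), but this difference had an adjusted p of 0.79, so an unequal effect at the 2 ages was not established.

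The age of the flies gave no edgeR call for GluRIIA in either genotype. In KO flies it averaged 22.2 CPM at 25 d and 22.9 CPM at 3 d. The fitted difference was -0.05 on the log2 scale (SE 0.32, interval -0.76 to 0.67; adjusted p = 0.966 by edgeR). The sign of this small value turned without replicate 1 of KO at 25 d, to 0.12, and without the 3 libraries that stood apart, to 0.19. In WT flies it averaged 4.21 CPM at 25 d and 10.3 CPM at 3 d, and every 25 d library was below every 3 d library. The log2 fold change was -1.28 (SE 0.30, interval -1.94 to -0.63), with an unadjusted p of 0.00137 and an adjusted p of 0.141. It passed the threshold by DESeq2 (-1.31, adjusted p = 0.00667), by voom with quality weights (-0.82, adjusted p = 0.0107) and without the 3 libraries that stood apart (-0.88, adjusted p = 0.0199).

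GluRIIB, the alternative to GluRIIA in the receptor, was near the limit of detection in all but the KO libraries of 25 d. Its raw counts there were 106 and 23, against 6, 7 and 1 in WT at 25 d. At 3 d the counts were 6, 4 and 4 in KO, against 4, 9 and 12 in WT, and those groups overlapped. In CPM, the 25 d libraries had 2.72 and 0.648 in KO, against 0.160, 0.178 and 0.0368 in WT, so that the groups did not overlap and most of the KO mean came from replicate 1. At 25 d the log2 fold change was 3.70 (SE 1.04, interval 1.4 to 5.99), with an unadjusted p of 0.00485 and an adjusted p of 0.11 by edgeR. DESeq2 called it (3.72, adjusted p = 0.00844), and without replicate 1 of KO at 25 d edgeR gave 2.32 (adjusted p = 0.617). Between 25 d and 3 d in KO the log2 fold change was 3.6 (SE 1.03, adjusted p = 0.298), with DESeq2 giving 3.65 (adjusted p = 0.0258) and the fit without that replicate 2.23 (adjusted p = 0.703). At 3 d the KO effect was -0.65 (SE 0.93, interval -2.70 to 1.41), an interval too wide to tell a rise from a fall.

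GluRIIC, an obligatory subunit, had raw counts of 28, 45 and 62 in KO at 3 d, against 91, 82 and 197 in WT. At 25 d the counts were 0 and 23 in KO, against 41, 84 and 44 in WT. The KO libraries were lower than the WT libraries at 25 d without overlap, and at 3 d they overlapped only through KO replicate 3, at 2.14 CPM, beside WT replicates 1 and 2, at 2.05 and 2.11 CPM. On the log2 scale KO differed from WT by -2.31 at 25 d (SE 1.23, interval -5.03 to 0.40; adjusted p = 0.299 by edgeR) and by -1.21 at 3 d (SE 1.00, interval -3.42 to 1.00; adjusted p = 0.771). The 3 d value was -0.60 without WT replicate 3 and -1.68 without KO replicate 3, and was not called in either fit. Averaged over the ages it was -1.76 (SE 0.79, unadjusted p = 0.0483, adjusted p = 0.208).

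GluRIID, another obligatory subunit, followed GluRIIC across libraries, with a Pearson correlation of 0.909 over 11 libraries that share groups and depth, or 0.813 without replicate 1 of KO at 25 d. Its raw counts were 29, 54 and 115 in KO at 3 d, against 93, 86 and 122 in WT, and 0 and 24 in KO at 25 d, against 57, 57 and 31 in WT. The groups overlapped at 3 d through KO replicate 3, and at 25 d both KO libraries were below all WT libraries. Its KO effect on the log2 scale was -2.02 at 25 d (SE 1.23, interval -4.75 to 0.71; adjusted p = 0.356 by edgeR) and -0.30 at 3 d (SE 1.00, interval -2.51 to 1.92; adjusted p = 0.964).

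Replicate 1 of KO at 25 d decided the size of these values. In that library a limit of 3 counts corresponds to 0.077 CPM, so GluRIIC was at least 21.0-fold lower there than the WT 25 d mean of 1.62 CPM, and GluRIID at least 17.8-fold lower than the WT 25 d mean of 1.37 CPM. The same library listed 0 counts for 15.2% of the tested genes, and for 161 of the 8987 genes (1.79%) that had at least 23 counts in each of the other 10 libraries, a set that includes GluRIIC and GluRIID. Without it the log2 fold change at 25 d was -1.32 for GluRIIC (adjusted p = 0.738) and -1.02 for GluRIID (adjusted p = 0.831). Without replicate 2 of KO at 25 d, replicate 1 was the lone KO library of that age. The log2 fold change was then -8.89 for GluRIIC, -8.65 for GluRIID and 4.38 for GluRIIB. The 2 negative values rest on 0 counts and are no bounds. The limit of 3 counts covers counting error only.

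GluRIIE, the third obligatory subunit, overlapped between the genotypes at both ages. It was at 7.63, 5.79 and 8.05 CPM in KO at 3 d, against 5.71, 5.59 and 8.85 CPM in WT, and at 13.7 and 6.48 CPM in KO at 25 d, against 8.03, 7.04 and 2.39 CPM in WT. The highest value came from replicate 1 of KO at 25 d and the lowest from WT replicate 3 at the same age. The KO effect was 0.79 at 25 d (SE 0.48, interval -0.28 to 1.87; adjusted p = 0.357 by edgeR) and 0.09 at 3 d (SE 0.44, interval -0.88 to 1.07; adjusted p = 0.979), and without replicate 1 of KO at 25 d the first of these was 0.15.

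**Figure D2:**
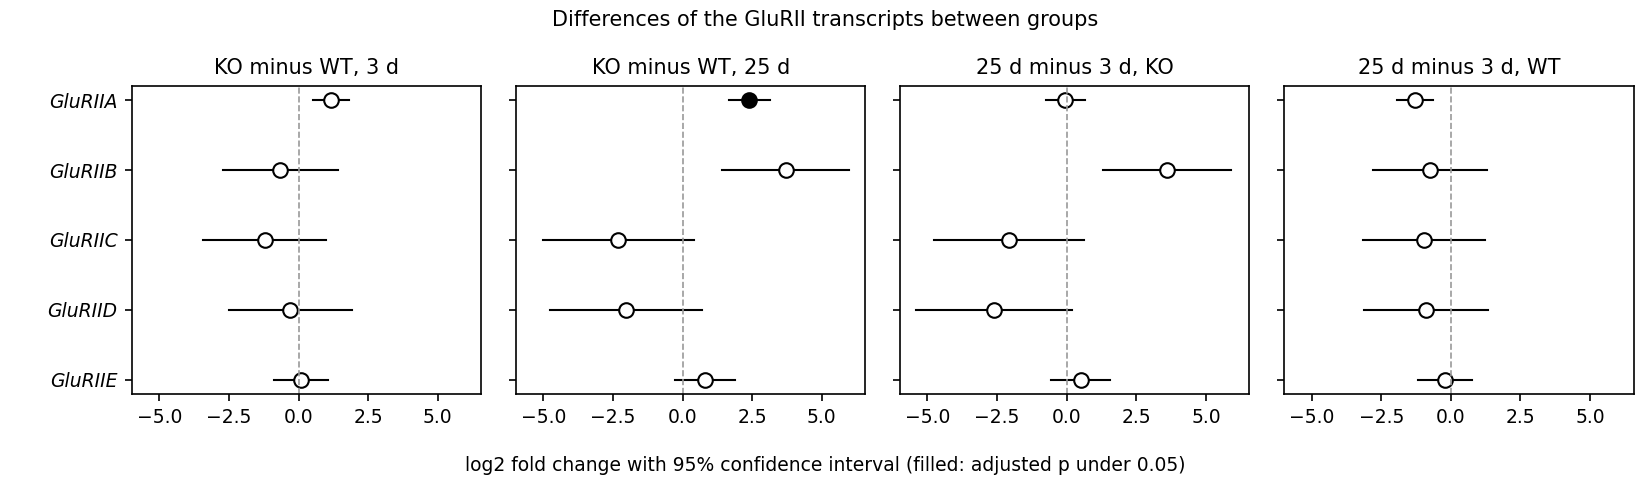
Log2 fold change (horizontal axis) with its 95% confidence interval for each GluRII gene, for KO minus WT at each age and for 25 d minus 3 d in each genotype; filled points had an adjusted p under 0.05 by edgeR. The filled point is GluRIIA at 25 d, at 2.4, and the intervals of GluRIIC, GluRIID and GluRIIE include 0 in all 4 comparisons.

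Counted over the members, edgeR called 0 of 5 between KO and WT at 3 d, where 1.39% of all tested genes were called, with 1 member (GluRIIA) at an unadjusted p under 0.05 and 1 called by each of DESeq2, voom and voom with quality weights. At 25 d edgeR called 1 higher and 0 lower, DESeq2 called 2 higher (GluRIIA and GluRIIB). Voom called 1 and voom with quality weights 0. Over all genes, edgeR called 165 at 3 d and 206 at 25 d, and DESeq2 558 and 1048. Voom called 178 and 189, and voom with quality weights 2376 and 16. Without the 3 libraries that stood apart, edgeR called GluRIIA higher in KO at 3 d and lower with age in WT, and no other member in these comparisons. Over all genes, that fit called 1509 at 3 d and 1099 with age in WT. At 25 d it has 1 KO library. The KO and WT libraries did not overlap for 1 of 5 members at 3 d, where 25.7% of all tested genes did not overlap, and for 4 of 5 at 25 d, where 32.9% did not. With age in WT, edgeR called 0 of 5, against 0.152% of all tested genes, with GluRIIA at an unadjusted p under 0.05. DESeq2 and voom with quality weights each called 1 lower and voom called 0, where they called 288, 1958 and 19 of all genes. The 25 d and 3 d libraries of WT did not overlap for 2 of 5 members, GluRIIA and GluRIID, against 26.0% of all tested genes. With age in KO edgeR called 0 of 5, against 0.0421%, with GluRIIB at an unadjusted p under 0.05. DESeq2 called GluRIIB, among 280 of all genes, and either form of voom called 0 members. The 25 d and 3 d libraries of KO did not overlap for 3 of 5, GluRIIB, GluRIIC and GluRIID, against 20.1%. The difference of the KO effects between ages was called by edgeR for 0 of 5, against 0.0253%, with 2 members (GluRIIA and GluRIIB) at an unadjusted p under 0.05 and 0 called by DESeq2 or either form of voom. The KO and age comparisons share libraries, so the values of a member in them are not independent.

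**Figure D3:**
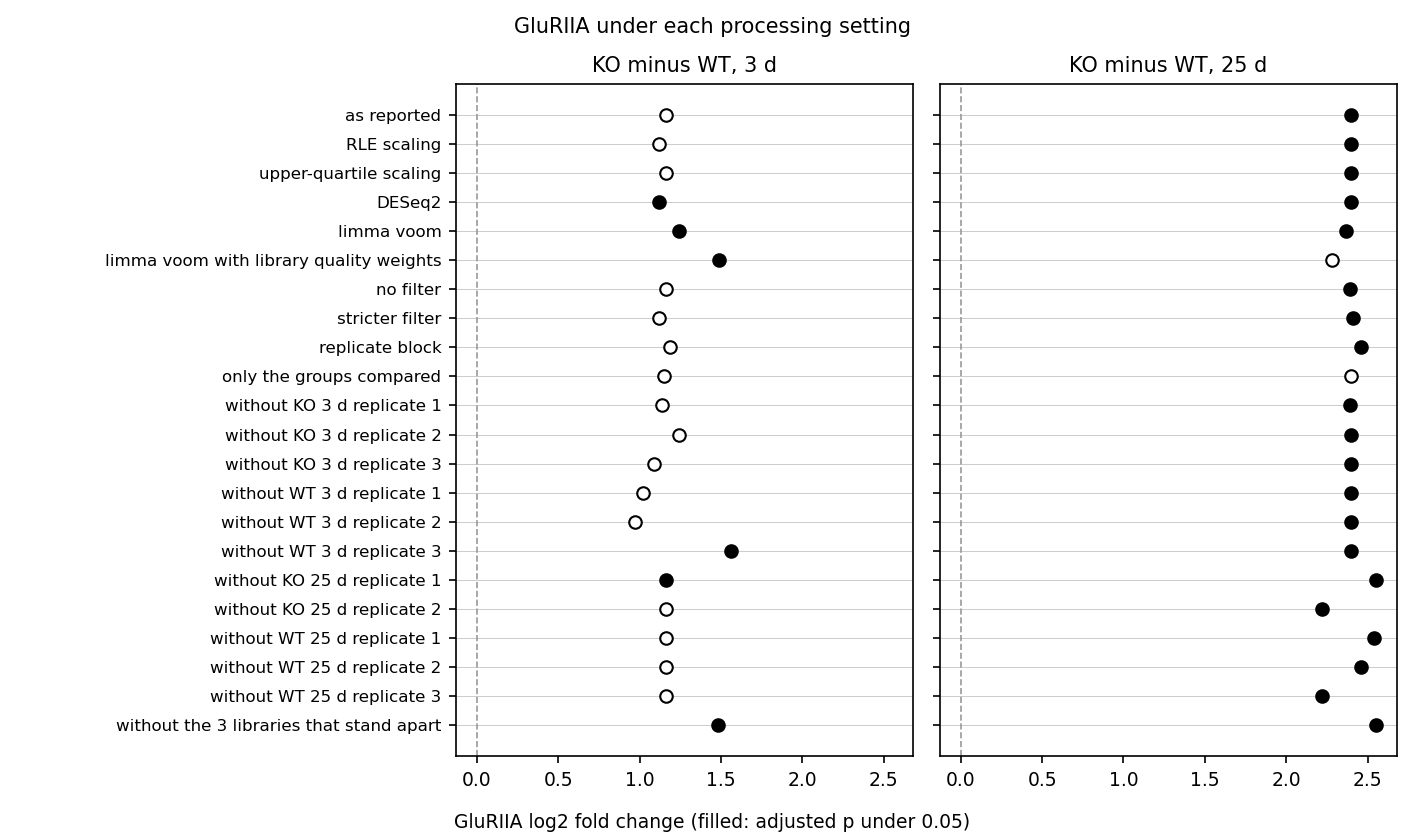
Log2 fold change of GluRIIA, KO minus WT, at 3 d and 25 d (horizontal axes) under each way of processing (rows); filled points had an adjusted p under 0.05. All values lie above 0, between 0.97 and 1.56 at 3 d and between 2.22 and 2.55 at 25 d, while the side of the threshold depends on the setting.

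Levels of different genes were compared per length, as CPM per kilobase of exon. GluRIIA had the highest level in KO at both ages, with means of 7.05 ± 0.737 at 3 d and 6.83 ± 1.11 at 25 d (SD, n = 3 and 2), and its libraries did not overlap those of GluRIIE, the next in order, at 2.08 and 2.93. In WT at 3 d GluRIIA was also first, at 3.16 ± 1.34, but overlapped GluRIIE at 1.95 ± 0.537. In WT at 25 d GluRIIE came first, at 1.69 ± 0.875, and overlapped GluRIIA at 1.29 ± 0.314. GluRIIC and GluRIID were next to each other in the order of all 4 groups, and their libraries overlapped in each. GluRIIB was last in KO at 3 d and in WT at both ages, at 0.0424 to 0.0733 CPM per kilobase, but in KO at 25 d, at 0.571, its mean stood above those of GluRIID at 0.110 and GluRIIC at 0.108. That place came from replicate 1, a library that stood apart, where GluRIIB was at 0.922 and the other two at 0. In replicate 2 GluRIIB and GluRIID were both at 0.220 and GluRIIC at 0.216, from 23, 24 and 23 counts.

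GluRIIA took a larger share of the GluRII transcript pool in every KO library than in any WT library. GluRIIA held 72.0%, 70.7% and 63.8% of the summed level per length in KO at 3 d, against 45.3%, 41.9% and 45.9% in WT. At 25 d its share was 55.2% and 75.0% in KO, against 32.1%, 30.0% and 36.7% in WT. The KO and WT shares did not overlap at either age. The ratio of GluRIIA to GluRIIE, per length, was 3.22, 3.74 and 3.31 in KO at 3 d, against 1.52, 1.39 and 1.83 in WT, and 1.52 and 4.05 in KO at 25 d, against 0.658, 0.688 and 1.35 in WT. GluRIIC had shares of 2.54%, 4.57% and 5.88% in KO at 3 d, against 12.3%, 13.1% and 17.4% in WT, and at 25 d of 0% and 2.13% in KO, against 7.62%, 15.1% and 21.1% in WT. For GluRIID the shares were 2.57%, 5.34% and 10.6% in KO at 3 d, against 12.2%, 13.4% and 10.5% in WT, so that the groups overlapped through both libraries numbered 3, which stood apart. At 25 d they were 0% and 2.16% in KO, against 10% to 14.5% in WT. Both KO values of 0 were in replicate 1. The largest share of GluRIIB was 8.42%, in replicate 1 of KO at 25 d, beside 2.16% in replicate 2 and 0.386% to 1.46% in all other groups. Shares of a whole move together, so a higher GluRIIA level alone lowers the shares of the others. The summed level of the 5 was 9.91, 8.88 and 12.1 CPM per kilobase in KO at 3 d, against 5.58, 5.38 and 10.2 in WT, and 11 and 10.2 in KO at 25 d, against 4.78, 4.69 and 2.55 in WT.

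**Figure D4:**
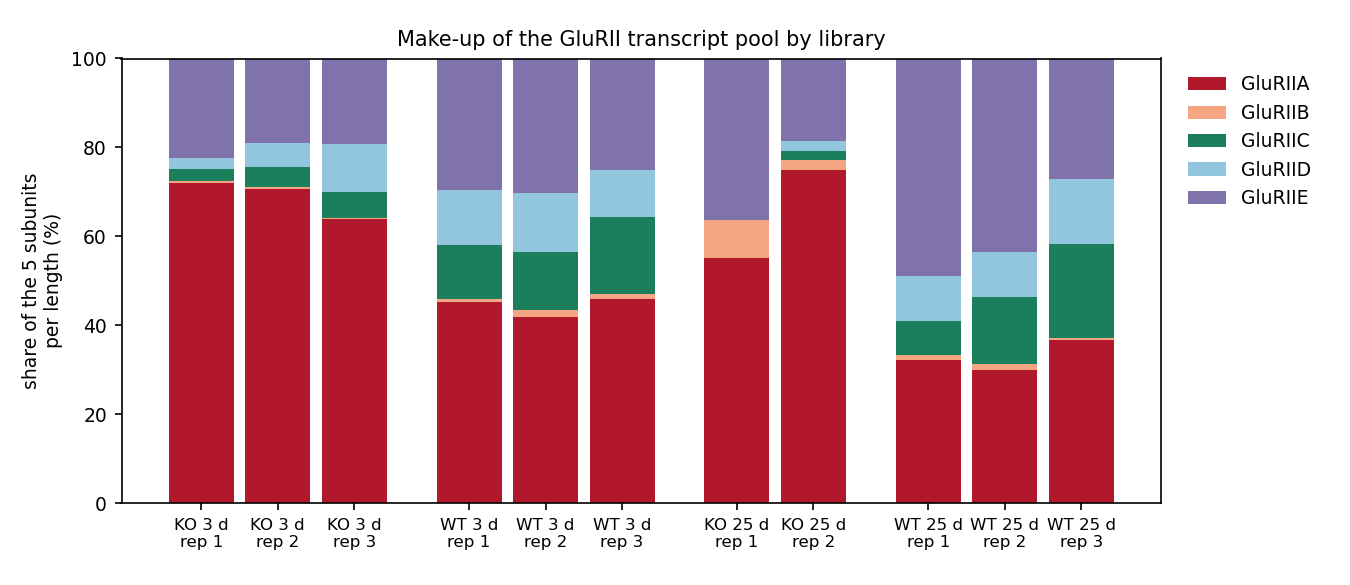
Share of each GluRII subunit in the summed level per length of the 5 (percent, stacked bars) in each library. The GluRIIA part reaches 55.2% to 75.0% in the KO libraries and 30.0% to 45.9% in the WT libraries.

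The GluRII receptors described above sit in muscle, so muscle transcripts were measured beside them. Which cells of the antenna held the GluRII transcripts was not tested. All 22 muscle markers were detected in the table, and their summed level was 1210 to 2630 CPM in KO and 2240 to 4310 CPM in WT at 3 d, and 810 to 1300 CPM in KO and 919 to 1350 CPM in WT at 25 d. TpnC47D was at 0 in replicates 1 and 2 of KO at 3 d and in replicate 1 of KO at 25 d, where fln was at 0 too. At 3 d, 21 of the 22 had a negative log2 fold change in KO (median -0.97, against -0.01 over all genes tested), and 2 were called lower by edgeR, Act88F, the actin of flight muscle (-3.00, adjusted p = 0.00963), and TpnC4, a troponin C (-2.55, adjusted p = 0.0379). At 25 d, 15 of 22 were negative (median -0.40, against -0.04), with Act88F called lower (-2.69, adjusted p = 0.035). With age in WT all 22 were negative (median -1.58, against -0.01), with Act79B, another muscle actin, called lower (-2.68, adjusted p = 0.0487). Other tools differed: DESeq2 called 7 lower at 3 d, 3 at 25 d and 15 with age in WT, voom 3, 0 and 1, and voom with quality weights 15, 0 and 17. Over all genes, in the same order, DESeq2 called 558, 1048 and 288, and voom 178, 189 and 19. Voom with quality weights called 2376, 16 and 1958. Without the 3 libraries that stood apart, 13 muscle markers were called lower in KO at 3 d and 13 with age in WT. Over all genes, that fit called 1509 and 1099 in these comparisons. The muscle sums of KO and WT overlapped at both ages, at 3 d through KO replicate 3 alone. The highest muscle sums at 3 d, 2630 CPM in KO and 4310 CPM in WT, were in the libraries numbered 3, where the neuron marker sums were lowest.

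Across the 11 libraries, the levels of GluRIIC and GluRIID followed the muscle marker sum more closely than those of the other members. The Pearson correlation on the log2 scale was 0.673 for GluRIIC and 0.694 for GluRIID, or 0.834 and 0.896 over the 10 libraries without replicate 1 of KO at 25 d. It was 0.119 for GluRIIA, -0.135 for GluRIIB and 0.288 for GluRIIE, or 0.154, -0.0579 and 0.442 over those 10 libraries. These values describe libraries that share groups and depth, and the part of muscle content in the KO effects on the members was not tested.

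**Figure D5:**
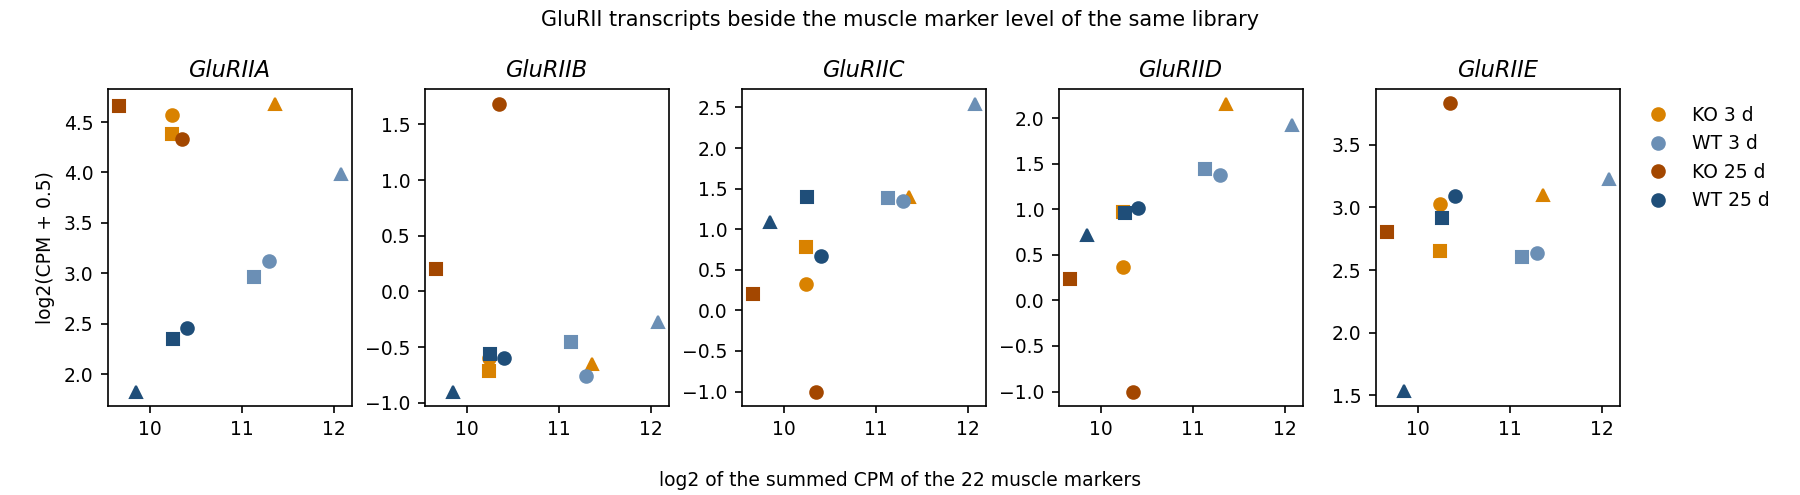
Level of each GluRII gene, as log2(CPM + 0.5), against the log2 of the summed CPM of 22 muscle markers in the same library; colours are groups, and circles, squares and triangles are replicates 1, 2 and 3. GluRIIC and GluRIID lie along the muscle sum apart from replicate 1 of KO at 25 d, with r of 0.673 and 0.694 over 11 libraries, while r is 0.119 for GluRIIA.

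Marker lists of other cells were at different levels among the groups. The summed level of 3 male markers (roX1, roX2 and msl-2, the dosage compensation genes) was 789 to 1280 CPM in KO and 2510 to 3870 CPM in WT at 3 d, and 1320 to 2760 CPM in KO and 2040 to 3270 CPM in WT at 25 d. All 3 had a negative log2 fold change in KO at both ages. Of these, edgeR called roX1 lower at 3 d and 0 at 25 d, and DESeq2 called roX1 and roX2 lower at 3 d and roX2 at 25 d. Most of the sum was roX1, which averaged 980 CPM in KO and 3020 CPM in WT at 3 d. The 5 fat body and female markers, such as the yolk protein gene Yp1, summed to 2070 to 8510 CPM in KO and 16.1 to 5150 CPM in WT at 3 d, and to 815 to 1440 CPM in KO and 128 to 1430 CPM in WT at 25 d. Their members differed in direction, with 4 higher and 1 lower in KO at 3 d, and 3 higher and 2 lower at 25 d. At 25 d Lsp2 averaged 5.49 CPM in KO and 112 CPM in WT, and Fbp1 0.0141 CPM in KO and 1.94 CPM in WT. The 9 photoreceptor markers summed to 1890 to 8120 CPM in KO and 2700 to 8770 CPM in WT at 3 d, and to 557 to 1580 CPM in KO and 1040 to 6450 CPM in WT at 25 d. The 7 glia markers summed to 2840 to 3440 CPM in KO and 3080 to 3820 CPM in WT at 3 d, and to 1950 to 2470 CPM in KO and 2960 to 3220 CPM in WT at 25 d. The 7 hemocyte markers summed to 279 to 401 CPM in KO and 290 to 430 CPM in WT over both ages. Of these, 5 had a negative log2 fold change in KO at 3 d (median of the 7 -0.33, against -0.01 over all genes tested). The same number were negative at 25 d (median -0.82, against -0.04). NimC1, a phagocytosis receptor gene, went the other way and was called higher in KO at 3 d (log2 fold change 2.87, adjusted p = 0.00398 by edgeR) and at 25 d (4.48, adjusted p = 0.00116). The 7 markers of Johnston's organ, the hearing organ in the second segment, summed to 175 to 220 CPM in KO and 195 to 250 CPM in WT. The part of sex, of other tissue, of hemocytes and of glia in the differences of the GluRII genes was not tested.

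The remaining genes of glutamatergic signalling showed few calls. Calls of the other tools for these lists are to be read beside their counts over all genes given above. Of 11 other glutamate receptor genes, edgeR called 0 at 3 d and 0 at 25 d between KO and WT, with 2 (GluRIA and Nmdar1) and 1 (GluRIA) at an unadjusted p under 0.05. DESeq2 called 0 at 3 d and 1 lower, GluRIA, at 25 d, voom called 0 at both ages, and voom with quality weights called Nmdar1 higher and GluRIA lower at 3 d. Without the 3 libraries that stood apart, edgeR called Nmdar1 higher and GluRIA lower at 3 d. GluRIA, an AMPA-type receptor subunit, was at 0 to 2.80 CPM in KO and 9 to 13 CPM in WT at 3 d, and at 0 to 0.367 CPM in KO and 7.94 to 14.9 CPM in WT at 25 d, and it was called lower for the effect averaged over the ages (adjusted p = 0.0293 by edgeR), a call that voom with quality weights did not make. Its difference was thus opposite in sign to that of GluRIIA, with no overlap of the genotypes at either age. Nmdar1, the obligatory NMDA receptor subunit, averaged 9.38 CPM in KO and 4.33 CPM in WT at 3 d (log2 fold change 1.11, adjusted p = 0.254), and 8.61 CPM in KO and 7.77 CPM in WT at 25 d (0.15, adjusted p = 0.85). The list's median log2 fold change was -0.25 at 3 d and -0.41 at 25 d, against -0.01 and -0.04 over all genes tested.

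Neto, the auxiliary subunit of GluRII receptors, was at 2.65, 1.89 and 2.59 CPM in KO at 3 d, against 2.05, 2.32 and 5.51 CPM in WT, and at 0.128 and 2.4 CPM in KO at 25 d, against 3.15, 2.67 and 0.809 CPM in WT. The groups overlapped at both ages, and the low KO value, from 5 counts, was in replicate 1 of KO at 25 d, where GluRIIC and GluRIID were at 0. Its KO effect on the log2 scale was -0.81 at 25 d (SE 0.98; edgeR's adjusted p = 0.636) and -0.47 at 3 d (SE 0.85; adjusted p = 0.923). Among all 18 postsynaptic partners, which include the scaffold gene dlg1 and the spectrins, edgeR called 0 at either age, with 0 at an unadjusted p under 0.05, and DESeq2 and voom also called 0. Voom with quality weights called 1 higher (Akap200) and 2 lower (Bsg and Nlg1) at 3 d and 0 at 25 d. Without the 3 libraries that stood apart, edgeR called Akap200 higher and Bsg and beta-Spec lower at 3 d. The partners' median log2 fold change was -0.18 at 3 d and -0.10 at 25 d, against -0.01 and -0.04 over all genes tested.

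VGlut, the transporter that loads glutamate into synaptic vesicles, varied widely within groups: it was at 1.14, 0.325 and 7.19 CPM in KO at 3 d, against 3.16, 1.03 and 12.5 CPM in WT, and at 0.077 and 0.367 CPM in KO at 25 d, against 19.5, 4.07 and 5.51 CPM in WT. Its log2 fold change at 25 d was -5.44 (SE 1.69, adjusted p = 0.136 by edgeR). Within the 9 genes of glutamate supply and clearance, edgeR called 0 between KO and WT at either age, with 1 (Got2) at 3 d and 4 (VGlut, Gad1, Got2 and gb) at 25 d at an unadjusted p under 0.05. DESeq2 called 0 at 3 d, and 1 higher (gb) and 1 lower (VGlut) at 25 d. Voom called 0 at both ages, and voom with quality weights called 1 higher (Got2) at 3 d and 0 at 25 d. Without the 3 libraries that stood apart, edgeR called Got2 higher and Gad1 lower at 3 d. With age in WT the gene gb (genderblind), an amino acid exchanger of glia, was called lower: it averaged 14.3 ± 1.54 CPM at 25 d and 27.1 ± 2.87 CPM at 3 d (SD, n = 3 each), and the fitted log2 difference was -0.93 (SE 0.14; edgeR's adjusted p = 0.0487). For the 12 presynaptic release genes, which encode the active zone and fusion machinery, edgeR called 0 between KO and WT at either age, with 1 at an unadjusted p under 0.05 at 3 d (Rim) and 1 at 25 d (cac). DESeq2 called Rim lower at 3 d and cac higher at 25 d, voom called 0 at both ages, and voom with quality weights called Rim lower at 3 d and 0 at 25 d. For edgeR the calls were Rim and brp lower at 3 d without the 3 libraries that stood apart.

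The genes on either side of the members were examined for shared differences. Of the neighbours within 2 places of a member that passed the filter, 6 in number, edgeR called 0 between KO and WT at either age, with 0 at an unadjusted p under 0.05, and DESeq2 and both forms of voom called 0. CG14017, which shares 66 bases of exon with GluRIIA on the same strand, averaged 0.152 CPM in KO and 0.383 CPM in WT at 3 d, and 0.527 CPM in KO and 0.180 CPM in WT at 25 d, far under the level of GluRIIA. Lrrk, which shares sequence with GluRIIE, averaged 72.5 CPM in KO and 79.1 CPM in WT at 3 d, and 63.4 CPM in KO and 99.2 CPM in WT at 25 d.

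Genes averaging at least 5 CPM were ranked by how closely their levels followed each member over the 11 libraries, as Pearson's r of log2(CPM + 0.5). For GluRIIA the closest of 8165 genes were CG13594 (0.967), ics (0.944), CG13203 (0.942), CG11425 (0.933) and CR43314 (0.932). The KO and WT libraries did not overlap for CG13594 (26.6 to 39.1 CPM in KO, 8.01 to 21.2 CPM in WT), ics, CG11425 or CR43314, and did overlap for CG13203. These genes were picked for following GluRIIA, which itself separated the genotypes, so the lack of overlap was largely fixed by the choice. Of all tested genes, 3.48% were higher in KO without overlap. For GluRIIC the closest were CG32407 (0.978), 18w (0.96) and CG6330 (0.96), and for GluRIID they were LanB1 (0.946), which encodes a laminin chain, CG7985 (0.946) and fat-spondin (0.939). For GluRIIE they were Uhg1 (0.933), RpL22 (0.912), which encodes a ribosomal protein, and Dph5 (0.91). GluRIIB was left out for its low mean. These are the highest of many correlations over the same libraries, given as a description.

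The microRNA gene itself could not be checked in these libraries. The mir-284 hairpin (FBgn0262383, 3R, 12551515 to 12551614, reverse strand) lies wholly within an exon of Octbeta2R, an octopamine receptor gene of the same strand, and was listed at 0 counts in 11 of 11 libraries, so its count says nothing on the genotype labels. Octbeta2R was at 32.6, 33.6 and 40.2 CPM in KO at 3 d, against 27.6, 24.1 and 45.0 CPM in WT, and at 50.0 and 31.5 CPM in KO at 25 d, against 24.1, 22 and 17.2 CPM in WT. Its log2 fold change was 0.95 at 25 d (SE 0.29, adjusted p = 0.127 by edgeR) and 0.14 at 3 d (SE 0.26, adjusted p = 0.924), below the threshold for a call at each age.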

How the data were processed

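Per the labels' protocols, polyadenylated RNA was made into libraries with a directional kit. The authors deposited unnormalized read-pair counts for each gene; per the file headers they ran featureCounts 1.4.5-p1 without regard to strand (setting 0), while the submitters' processing notes list STAR 2.4.2a and the dm6 build. Genotype, age and replicate number in the column names gave each column its sample. Of 12 count columns, 1 named as a further KO 25 d replicate was left out, and which columns stand for KO at 25 d depends on these numbers. FlyBase IDs and UTR lengths came from Ensembl's annotation of the same build. No sequence was used here, and sites for the microRNA were not analysed here.

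Tests used edgeR 4.0.16 in R 4.3.3: filterByExpr by group (11867 genes left), TMM, the robust quasi-likelihood test on 4 group means over 11 libraries, and Benjamini-Hochberg adjustment over all genes tested, with calls at an adjusted p under 0.05. Adjusted p-values given without a tool come from it. The scripts were tested on simulated data. Alternatives were DESeq2 1.42.0, voom (limma 3.58.1) with and without library quality weights, scaling by RLE or by upper quartile, no filter, a stricter filter (at least 10 counts and 5 CPM), the replicate number as a block, only the groups compared, and leaving out each library; leaving out 3 libraries together was added after seeing the data. Named were the members, mir-284, Neto and VGlut, up to 4 called genes per list, the 5 genes most like GluRIIA and 3 for each other member with a mean of at least 1 CPM, and neighbours within 2 places; Octbeta2R, Nmdar1 and the markers shown beyond these were chosen after their values were seen. The members, lists and rules were chosen with earlier results of these data known.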

Additional observations from a re-analysis of the deposited data

How the results depend on the processing

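The count of called genes moved most with the tool and with single libraries. Between KO and WT at 3 d it was 165, against 558 by DESeq2, 2376 by voom with quality weights, 1509 without the 3 libraries that stood apart (added after seeing the data) and 64 to 592 leaving out 1 library. At 25 d it was 206, against 1048 by DESeq2, 16 by voom with quality weights, 20 in a fit of only the groups compared, 888 without the 3 libraries and 68 to 5090 leaving out 1. With age in WT it was 18, against 288, 1958, 121, 1099 and 2 to 184 in the same order, and with age in KO 5, against 280, 1, 0, 209 and 1 to 4084. For the difference of the KO effects it was 3, against 43 by DESeq2, 5 with the stricter filter, 87 without the 3 libraries and 0 to 2987 leaving out 1. For the averaged KO effect it was 631, against 1552 by DESeq2, 365 by voom with quality weights, 1975 without the 3 libraries and 363 to 4950 leaving out 1. The highest counts at 25 d came without replicate 2 of KO. Without either KO library of 25 d, as in the fit without the 3 libraries, the lone other library was assumed to vary like the other groups. The cause was not tested.

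GluRIIA (log2 values) passed the threshold at 3 d by DESeq2 (1.12), voom (1.24), voom with quality weights (1.49) and without the 3 libraries (1.48), with 0.97 to 1.56 leaving out 1. At 25 d it missed it by voom with quality weights (2.28) and in the fit of only the groups compared (2.4). Leaving out 1 library gave 2.22 to 2.55, called each time that both KO libraries of that age stayed in. With age in WT it passed by DESeq2 (-1.31), voom with quality weights (-0.82) and without the 3 libraries (-0.88), and with age in KO its sign turned under the block (0.04) and without the 3 libraries (0.19), with -0.22 to 0.12 leaving out 1. GluRIIB passed by DESeq2 at 25 d (3.72) and with age in KO (3.65), and its sign turned with age in WT by voom with quality weights (0.02). GluRIIE turned sign with age in WT by voom with quality weights (0.19) and without the 3 libraries (0.05), with age in KO (-0.04) and for the difference of the KO effects (-0.09) without the 3 libraries. Leaving out 1 library, GluRIIE ranged from -0.02 to 0.34 for KO at 3 d, -0.51 to 0.17 with age in WT and -0.13 to 0.94 with age in KO, and GluRIID from -1.18 to 0.07 for KO at 3 d. Leaving out 1 library, KO at 25 d ranged from 2.32 to 4.38 for GluRIIB, -8.89 to -1.32 for GluRIIC and -8.65 to -1.02 for GluRIID, age in KO from 2.23 to 4.28, -8.65 to -1.06 and -9.24 to -1.59, the difference of the KO effects from 2.97 to 5.02, -7.68 to -0.10 and -8.36 to -0.71, and the averaged effect from 0.83 to 1.87, -5.05 to -1.27 and -4.47 to -0.66, for the same genes in that order. The large negative ends rest on 0 counts and are no bounds.

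Same-numbered replicates had deviations correlated above 0.1 in 2 of 5 pairs of KO and WT libraries (-0.0491 to 0.465). Both pairs were at 3 d, with 0.408 for replicate 1 and 0.465 for replicate 3, beside 0.0254 for replicate 2. At that age, 4 of 6 libraries correlated best with their own number in the other genotype. Whether the numbers mark shared handling was not settled, and the main fit did not use them. With the replicate number as a block, edgeR called 117 genes at 3 d, 145 at 25 d and 2 with age in KO, and no member's call changed (GluRIIA at 25 d 2.46, adjusted p = 0.0185). The stricter filter removed GluRIIB, GluRIIC and GluRIID, and the difference of the KO effects and the averaged effect have no fit of fewer groups. The 5 members' summed 224 to 1407 counts per library limit what could be detected, most of all for GluRIIB.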
